A study of Homo sapiens with 11 samples.

Results

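Of the 127325 replication origins mapped in wild-type U2OS cells, 60173 (47.3%) were chosen by a rule of position and width alone. The rule took origins on chromosomes 1 to 22 that were under 10000 bp wide. It also required that they share no base with an HCT116 RepID KO origin, a CUL4A peak or a CDT2 peak. These are called here the U2OS-only origins without CUL4A or CDT2. The limits of chromosome and width alone left 121234 origins, of which 49.6% were U2OS-only origins without CUL4A or CDT2.

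The study asked how RepID, a protein that binds replication origins, acts with the CUL4 ubiquitin ligase on chromatin. It deposited 11 samples with 1 sample per condition, of which 8 came with a list of enriched regions and 3 were inputs that were not used here. Cultures were unsynchronized and untreated. Origins were read from short nascent strands, purified with lambda exonuclease, in U2OS cells with wild-type RepID and in HCT116 cells whose RepID had been knocked out with CRISPR-Cas9. U2OS is a human osteosarcoma line and HCT116 a human colon carcinoma line. The HCT116 RepID KO sample was labelled as a clone. ChIP-Seq for CUL4A, H3K4me3 and H3K9me3 was made in U2OS cells with wild-type RepID, and ChIP-Seq for SKP2 in HCT116 WT and RepID KO cells. For CDT2 the sources differ, since the description of the deposited data names U2OS cells stably overexpressing FLAG-tagged full-length RepID and the methods name wild-type cells. The 2 origin lists differ in both cell line and RepID genotype, and these cannot be told apart. An origin list of HCT116 WT cells was not used here, so "U2OS-only" says that an origin met none of the 85555 listed origins of the HCT116 RepID KO sample.

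Replication starts at many sites along each chromosome, and which of them are used varies between cell types and between cells of a culture. CUL4A holds together the CRL4 ubiquitin ligase, which limits replication to a single round per cell cycle, and CDT2 and RepID are substrate receptors of that ligase. SKP2 is the receptor of the SCF ligase, a separate complex that also degrades replication factors. H3K4me3 is a histone mark of active promoters, and many origins that are shared between cell types lie near promoters. H3K9me3 is a mark of heterochromatin, in which genes are mostly silent.

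In these origins H3K4me3 and the SKP2 regions of HCT116 cells were rare, and H3K9me3 was the most frequent of the 4 lists. At least 1 base of an H3K4me3 region was found in 1893 origins (3.15%), of an H3K9me3 region in 6093 (10.1%), of an SKP2 region of HCT116 WT cells in 1181 (1.96%) and of an SKP2 region of HCT116 RepID KO cells in 1717 (2.85%). Over the 121234 U2OS origins under the width limit, these shares were 10.8%, 17.8%, 4.46% and 5.33%. Each share was thus lower in the U2OS-only origins without CUL4A or CDT2, and H3K9me3 was the most frequent in both. The lists, in the same order, hold 25181, 57632, 12221 and 13885 regions. Any of these 4 lists was met by 10175 of the origins, and 49998 (83.1%) met none of them. The origins that met none had a median width of 2000 bp and a median score of 74, against 2200 bp and 87 for the origins that met at least 1 list.

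Among the 72252 U2OS origins under the width limit that met no HCT116 RepID KO origin, 12079 (16.7%) met a CUL4A or CDT2 peak and the other 60173 (83.3%) did not. An origin that did share a base with an HCT116 RepID KO origin is called cross-line here. There were 22751 cross-line origins without CUL4A or CDT2 and 26231 with either of them. These 4 sets do not overlap, and the first set is compared with the other 3 below.

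The U2OS-only origins without CUL4A or CDT2 were short and had low scores. Their median width was 2000 bp, with 10th and 90th percentiles of 800 and 4200 bp, and together they covered 137964600 bp. The median width was 2600 bp for cross-line origins without CUL4A or CDT2, 2200 bp for U2OS-only origins with CUL4A or CDT2 and 3200 bp for cross-line origins with them. The authors' score, a whole number per origin whose scale the list does not state, had a median of 76 and reached 1827. In the other 3 sets, in the same order, the median score was 103, 91 and 141. When the 121234 origins were split into 5 groups by score, the U2OS-only origins without CUL4A or CDT2 made up 67.5% of the group with scores of 24 to 59 and 21.8% of the group with the highest scores. Their share thus fell at each step, through 62.2%, 54.5% and 41.8% in between. Width enters the rule and a wider region meets more of the other lists, so these differences in width and score are a description of the choice.

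Both limits of the rule cut through a continuous range. There were 26 chosen origins of 9800 bp, with a median score of 360.5, and 33 origins of 10000 bp that met the other conditions but were left out for their width, with a median score of 385. At the other limit, 402 chosen origins (0.668%) touched an excluded region without sharing a base, and 4538 (7.54%) had an excluded region within 1000 bp. Within 10000 bp there was such a region for 30686 of them (51.0%). On the other side, 981 origins were left out for 200 shared bases or fewer. The median distance was 17200 bp to the nearest HCT116 RepID KO origin, 23200 bp to the nearest CUL4A peak and 41317 bp to the nearest CDT2 peak.

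H3K4me3 showed the widest difference between these origins and the cross-line origins without CUL4A or CDT2. Of the U2OS-only origins without CUL4A or CDT2, 3.15% (Wilson 95% confidence interval 3.01 to 3.29%) met H3K4me3, against 20.2% (19.6 to 20.7%) of cross-line origins without CUL4A or CDT2. Since wider origins meet more regions, the shares were also set on a common footing by weighting 4 width classes as they occur in the U2OS-only origins without CUL4A or CDT2. On this footing the cross-line share was 19.4%, and the U2OS-only share was 16.2 percentage points lower, with a 95% interval of 15.7 to 16.8 points. By unweighted shares, the direction was the same on 22 of 22 chromosomes. U2OS-only origins with CUL4A or CDT2 were much closer, at 6.35% after weighting. The origins without either protein were 3.20 points below them (95% interval 2.74 to 3.66 points). By unweighted shares they were again lower on 22 of 22 chromosomes. These intervals cover the counting of regions only and treat neighbouring origins as independent, and no replicate was available to measure experimental error.

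**Figure D1:**
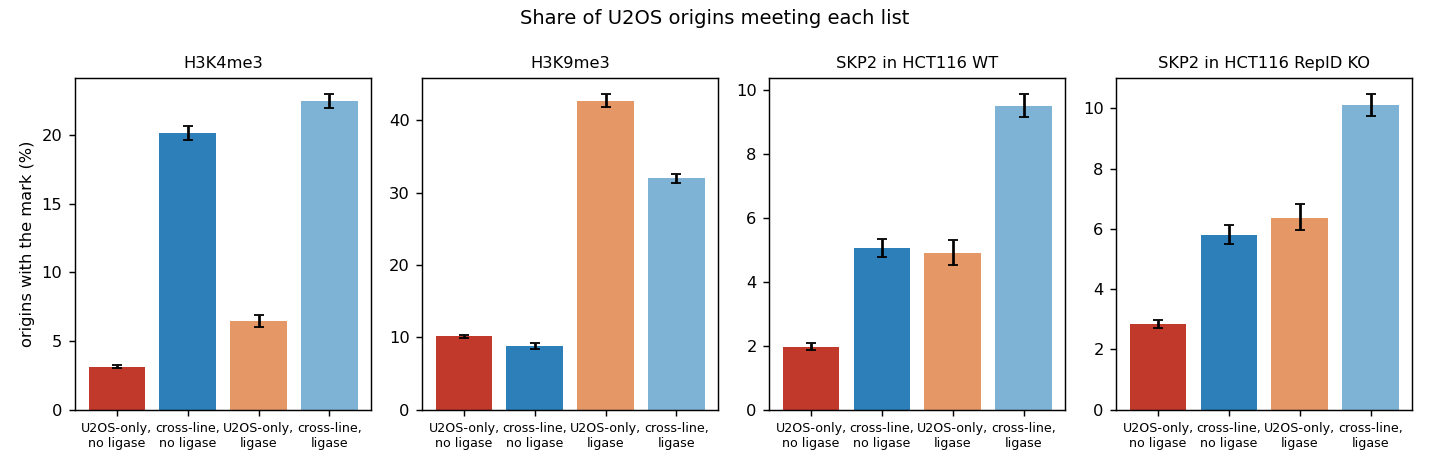
Share of the U2OS origins in each of the 4 sets that shared at least 1 base with each list, in percent, with Wilson 95% intervals as error bars. "Ligase" stands for a CUL4A or CDT2 peak, and each panel has its own vertical axis, which starts at 0. The U2OS-only origins without CUL4A or CDT2 (red) had the lowest bar in 3 of 4 panels, and in the H3K9me3 panel they stood at 10.1%, against 8.80% for cross-line origins without CUL4A or CDT2 and 42.7% for U2OS-only origins with them.

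The low H3K4me3 share held in each width class. It rose from 2.06% of the U2OS-only origins without CUL4A or CDT2 under 1000 bp to 4.69% of those of 4000 bp or more, and from 16.6% to 22.7% of cross-line origins without CUL4A or CDT2. It also held at like scores. In the group with the lowest scores, 2.23% of the former and 18.7% of the latter met H3K4me3, and in the group with the highest scores 5.11% and 22.8% did. The highest share in the U2OS-only origins without CUL4A or CDT2 thus stayed below the lowest share in the cross-line origins, whether the split was by width or by score.

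**Figure D2:**
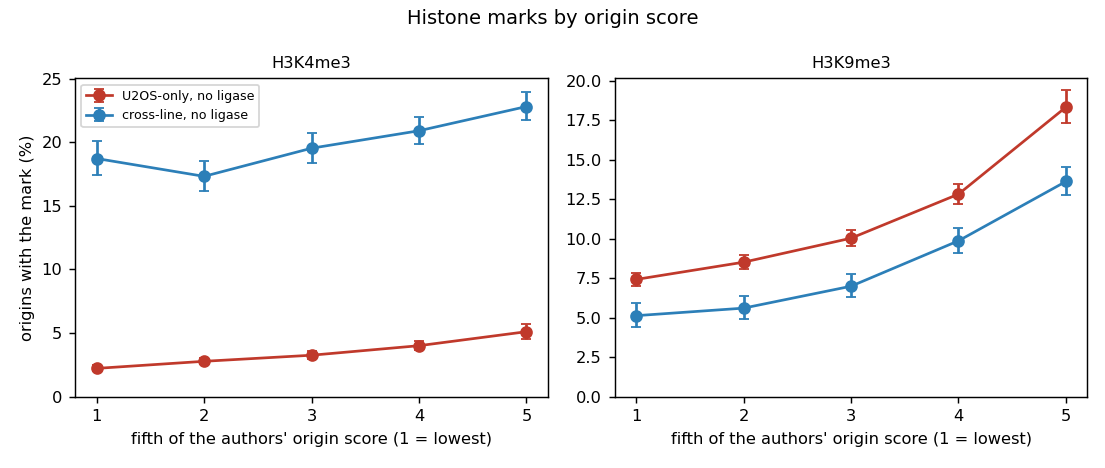
Share of origins meeting H3K4me3 (left) and H3K9me3 (right), in percent, in 5 groups of U2OS origins ordered by the authors' score from lowest (1) to highest (5), with Wilson 95% intervals. H3K4me3 stayed between 2.23% and 5.11% in the U2OS-only origins without CUL4A or CDT2 (red) and between 17.3% and 22.8% in the cross-line origins without CUL4A or CDT2 (blue), while H3K9me3 rose with the score in both sets.

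H3K9me3 followed another order. It was found at 10.1% (9.89 to 10.4%) of the U2OS-only origins without CUL4A or CDT2, at 8.80% (8.44 to 9.18%) of the cross-line origins without these proteins, at 42.7% of the U2OS-only origins with CUL4A or CDT2 and at 32.0% of the cross-line origins with them. After weighting for width, the U2OS-only origins without CUL4A or CDT2 lay 32.2 percentage points below the U2OS-only origins with them (31.3 to 33.1 points). Against the cross-line origins without these proteins they lay 2.43 points higher (95% interval 2.01 to 2.86 points). By unweighted shares they were lower on 22 of 22 chromosomes in the first comparison and on 2 of 22 in the second. The difference from the cross-line origins was small and depended on how the origins were compared. Without weighting for width it was 1.32 points (0.882 to 1.76). Within bins of 1 Mb, used in place of the width classes, it was 0.448 points, with an interval of -0.0963 to 0.992. This comparison was chosen after the data had been seen and used 55765 of the U2OS-only origins without CUL4A or CDT2. The H3K4me3 difference became larger within bins, at -22.1 points, against -17.0 points without weighting. Where a bin held few origins, the intervals within bins are too narrow. By score, the H3K9me3 share rose from 7.43% to 18.3% in the U2OS-only origins without CUL4A or CDT2 and from 5.14% to 13.6% in the cross-line origins, so that origins with higher scores met H3K9me3 more often in both sets. Scores rise with width, but among origins from 2000 to under 4000 bp wide the share still rose between the second and the highest score group. It went from 7.64% to 18.7% in the U2OS-only origins without CUL4A or CDT2 and from 5.68% to 10.7% in the cross-line origins. The lowest score group of this width held only 54 cross-line origins, at 7.41%. The rise was not steady in every width class. Under 1000 bp, the share of the U2OS-only origins was 7.95% in the lowest score group and 0% in the highest, which held 9 origins. Cross-line origins from 1000 to under 2000 bp wide fell to 6.98% in the highest group, from 8.86% in the group before it.

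SKP2 regions, measured in HCT116 cells and not in the line that gave the origins, were the rarest of the 4 lists. They met 1.96% (1.85 to 2.08%) of the U2OS-only origins without CUL4A or CDT2 in HCT116 WT cells and 2.85% (2.72 to 2.99%) in RepID KO cells. After weighting for width, the WT share was 3.16 percentage points below that of cross-line origins without CUL4A or CDT2 and 2.85 points below that of U2OS-only origins with them. The RepID KO share was 2.79 and 3.48 points below. By unweighted shares, the WT share was lower on 22 of 22 chromosomes in both comparisons, and the RepID KO share on 22 and 21 of 22. Of the U2OS-only origins without CUL4A or CDT2, 79 met both lists, 1102 met the WT list alone and 1638 met the RepID KO list alone. The 79 were 6.69% of those that met the WT list, against 18.2% over the 121234 origins. Weighted for width, RepID KO regions met 6.69% of the origins with a WT region and 2.85% of those without, a difference of 3.84 points (95% interval 2.41 to 5.26). The RepID KO list is the longer, with 13885 regions against 12221, a ratio of 1.14. The ratio of the RepID KO share to the WT share was 1.45 in the U2OS-only origins without CUL4A or CDT2 and 1.30 in the U2OS-only origins with them. It was 1.15 in the cross-line origins without them, 1.06 in the cross-line origins with them and 1.19 over the 121234 origins. With 1 sample per genotype, a difference between WT and RepID KO cells cannot be told apart from a difference between these samples.

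The regions that met these origins also differed in form between the histone marks. The 1875 H3K4me3 regions were 7.74% of the H3K4me3 list on chromosomes 1 to 22, and had a median width of 2342 bp and a median fold enrichment over control of 8.04, as given by the authors. At cross-line origins without CUL4A or CDT2 there were 4576 H3K4me3 regions, with medians of 2932 bp and 9.21. The 6222 H3K9me3 regions were narrower, with a median width of 318 bp, and weaker, with a median fold of 3.92. Of these, 63.3% reached a −log10 q of 2, near the 66.8% of all H3K9me3 regions on chromosomes 1 to 22 and the 64.9% at cross-line origins without CUL4A or CDT2. At U2OS-only origins with CUL4A or CDT2 it was 77.8% of 5426 regions.

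Part of the H3K4me3 at these origins belonged to regions that also covered other features. Of the 1875 H3K4me3 regions, 424 (22.6%) also shared a base with an HCT116 RepID KO origin, and these had a median width of 4291 bp. Another U2OS origin was met by 325 (17.3%), a CUL4A peak by 128 (6.83%) and a CDT2 peak by 21 (1.12%). The remaining 1369 (73.0%) met the chosen origins and none of these features, and had a median width of 1308 bp. Of the H3K9me3 regions, 6207 of 6222 (99.8%) met none of these features, and these had a median width of 317 bp. The SKP2 regions were also narrow, and 99.8% of them in HCT116 WT and 99.7% in RepID KO cells met none. A narrow region can seldom reach beyond the origin it meets, so this contrast cannot be told apart from a difference in width.

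Around the centres of the origins, each list had its own profile. The centre is taken as the middle 400 bp and the outer part as the last 1 kb of a window reaching 10 kb to both sides. At the U2OS-only origins without CUL4A or CDT2, H3K4me3 covered 1.70% of the centres and 2.41% of the outer part, so that the centre held 0.705 times the outer level. Between these lay a minimum of 1.20% at 1300 bp, above which the centre stood 1.42-fold. The rule kept excluded regions out of these origins but not out of their flanks, and 51.0% had such a region within 10000 bp. How far this shaped the ratios of centre to outer part was not tested. At the cross-line origins without CUL4A or CDT2, H3K4me3 covered 14.4% of the centres, 4.16-fold the outer level of 3.45%.

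For H3K9me3 the profiles of these sets were exchanged. At the U2OS-only origins without CUL4A or CDT2, it covered 2.52% of the centres, 2.33-fold the outer level of 1.08%, and at the cross-line origins without CUL4A or CDT2 it covered 1.39%, which was 0.922 times the outer level of 1.51%. The centre of the former stood 3.92-fold above the lowest point of 0.643%, and that of the latter 1.93-fold above 0.724%. The strongest H3K9me3 centre was that of the U2OS-only origins with CUL4A or CDT2, at 13.7%, or 10.8-fold its outer level. SKP2 had a central maximum in the U2OS-only origins without CUL4A or CDT2 as well. In HCT116 RepID KO cells it covered 0.820% of the centres, 3.85-fold the outer level, and in WT cells 0.555%, or 2.96-fold. A central maximum of SKP2 was also found in each of the other sets, so it did not set these origins apart. In WT cells their ratio was the lowest. It was 3.20-fold at cross-line origins without CUL4A or CDT2, 4.10-fold at cross-line origins with them and 6.20-fold at U2OS-only origins with them. In RepID KO cells the cross-line sets were lower, at 3.09-fold without and 3.74-fold with CUL4A or CDT2. The U2OS-only origins with CUL4A or CDT2 were higher.

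**Figure D3:**
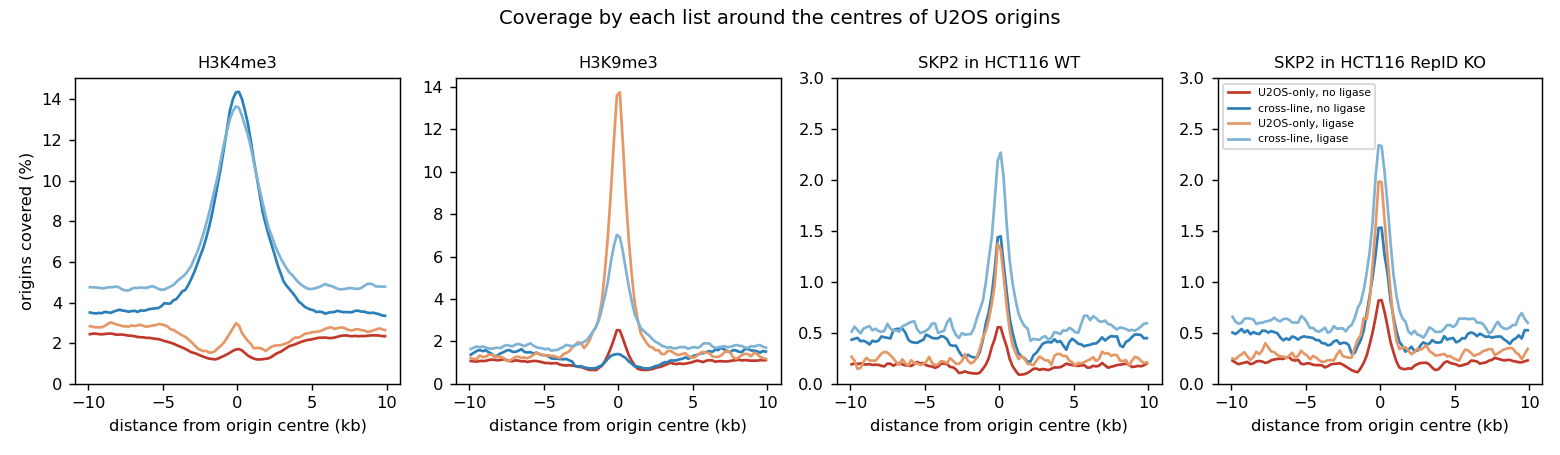
Percentage of origins whose sequence at a given distance from the origin centre (horizontal axis, kb) was covered by each list, in steps of 200 bp, for the 4 sets of U2OS origins. "Ligase" stands for a CUL4A or CDT2 peak, and the vertical axes differ between the histone marks and SKP2. At the U2OS-only origins without CUL4A or CDT2 (red), H3K4me3 was lower at the centre (1.70%) than in the outer part (2.41%), while H3K9me3 (2.52% against 1.08%) and both SKP2 lists were highest at the centre. The rule kept excluded regions out of these origins but not out of their flanks.

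Few of the chosen origins met both H3K4me3 and H3K9me3, each of which was itself uncommon there. Of the U2OS-only origins without CUL4A or CDT2, 1731 met H3K4me3 alone, 5931 met H3K9me3 alone and 162 (0.269%) met both. Weighted to the widths of the origins with H3K4me3, H3K9me3 was found at 8.56% of those with H3K4me3 and at 10.7% of those without, a difference of -2.16 points (95% interval -3.44 to -0.873). In cross-line origins without CUL4A or CDT2 the unweighted shares were 6.67% and 9.34%, and in cross-line origins with them 30.2% and 32.5%. U2OS-only origins with CUL4A or CDT2 went the other way, at 45.5% and 42.5%, with overlapping intervals. SKP2 was more frequent at the chosen origins with H3K9me3 than at those without. SKP2 regions of HCT116 RepID KO cells met 4.43% of the origins with H3K9me3 and 2.77% of those without, weighted to the widths of the origins with H3K9me3, a difference of 1.66 points (1.13 to 2.20). For HCT116 WT cells the shares were 2.49% and 1.97%, a difference of 0.520 points (0.110 to 0.931). Each of the other sets had the same direction in both genotypes by unweighted shares. In RepID KO cells these were 7.24% and 5.67% at cross-line origins without CUL4A or CDT2. They were 7.25% and 5.72% at U2OS-only origins with them, and 14.0% and 8.25% at cross-line origins with them. H3K9me3 and SKP2 shares both rose with the score in the chosen origins, and the SKP2 differences were weighted for width only. Between SKP2 and H3K4me3 at the chosen origins, the intervals of the difference held 0. It was -0.408 points (-0.992 to 0.176) in WT and -0.526 points (-1.23 to 0.182) in RepID KO cells.

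The U2OS-only origins without CUL4A or CDT2 lay in all 22 chromosomes but in unequal shares. They made up 65.2% of the U2OS origins under the width limit on chromosome 4 and 21.9% on chromosome 19, with a median of 48.0% over the chromosomes. Chromosome 22 was also low, at 23.7%. HCT116 RepID KO origins were most dense on chromosome 19, at 72.1 per Mb, and least dense on chromosome 4, at 14.1 per Mb. A U2OS origin among many origins of the other list is more likely to meet 1 of them, so part of this order follows from the rule. Per length of chromosome, the U2OS-only origins without CUL4A or CDT2 ranged from 4.97 per Mb on chromosome 13 to 28.0 per Mb on chromosome 10.

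Their H3K4me3 share was highest on chromosome 19, at 7.94%, and lay between 2.17% and 4.19% on the other chromosomes. The cross-line origins without CUL4A or CDT2 also had their highest H3K4me3 share on chromosome 19, at 27.7%, against a median of 19.5% over the chromosomes. At the U2OS-only origins without CUL4A or CDT2, H3K9me3 varied less, between 8.29% on chromosome 17 and 11.9% on chromosome 11. On chromosome 13, which had only 572 of these origins, SKP2 shares were the highest of the 22 chromosomes, at 4.02% in HCT116 WT and 6.12% in RepID KO cells.

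**Figure D4:**
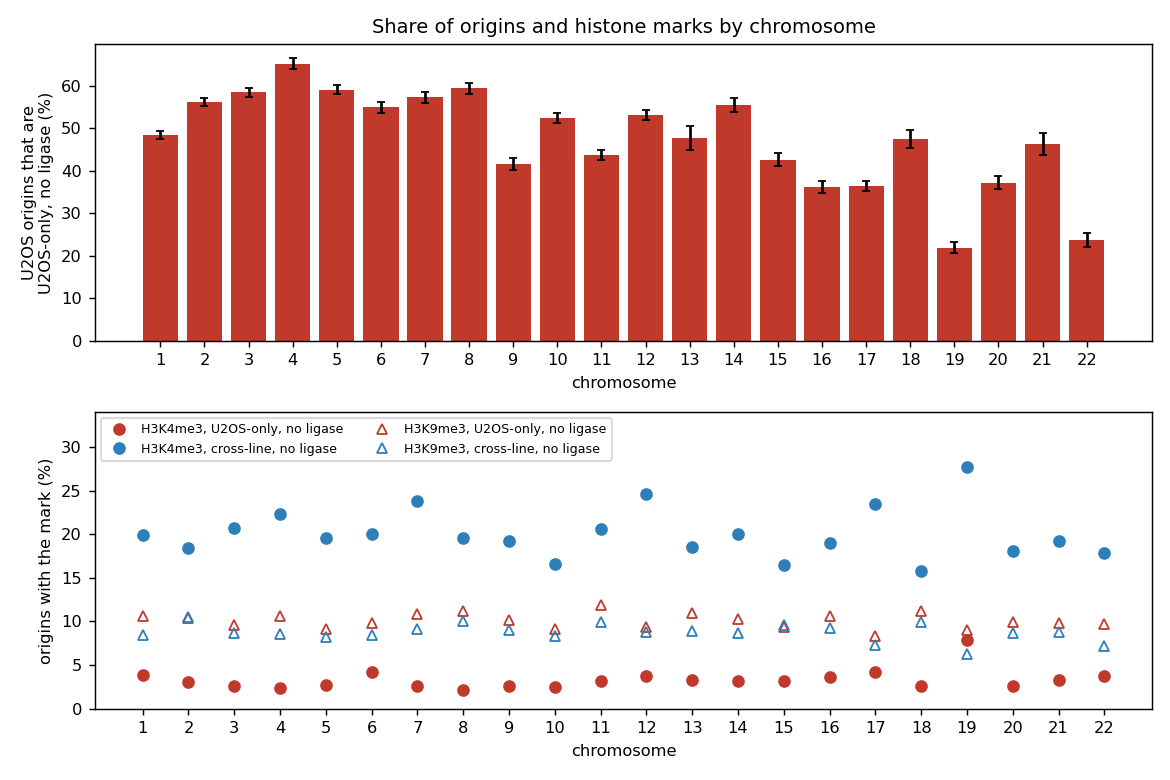
Upper panel, the percentage of U2OS origins under the width limit on each chromosome that were U2OS-only origins without CUL4A or CDT2, with Wilson 95% intervals. Lower panel, the percentage meeting H3K4me3 (circles) and H3K9me3 (triangles) in U2OS-only (red) and cross-line (blue) origins without CUL4A or CDT2. The blue circles lay above the red circles on 22 of 22 chromosomes, while the red and blue triangles lay close together, with the red below the blue on chromosomes 2 and 15.

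On a finer scale, 2662 of the 2710 bins of 1 Mb with a U2OS origin held at least 1 of these origins, with a median of 21 and a maximum of 66 per bin. Among the 2012 bins with at least 20 U2OS origins, they made up over 75% of the origins in 455 bins (22.6%) and under 25% in 303 bins (15.1%). Their share was 85.4% in bins with 0 to 4 HCT116 RepID KO origins and 30.2% in bins with 40 or more. The presence of that list in the rule fixes the direction of this trend. The marks did not enter the rule. H3K4me3 met 1.03% of these origins in bins with 0 to 4 HCT116 RepID KO origins, 1.78% with 5 to 9, 2.73% with 10 to 19, 3.62% with 20 to 39 and 4.32% with 40 or more. At the cross-line origins without CUL4A or CDT2 the H3K4me3 share was highest in the bins between, at 30.7% with 10 to 19, and lowest in the bins with 40 or more, at 17.9%. H3K9me3 at the U2OS-only origins without CUL4A or CDT2 stayed between 9.55% and 10.7% over the same bins.

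**Figure D5:**
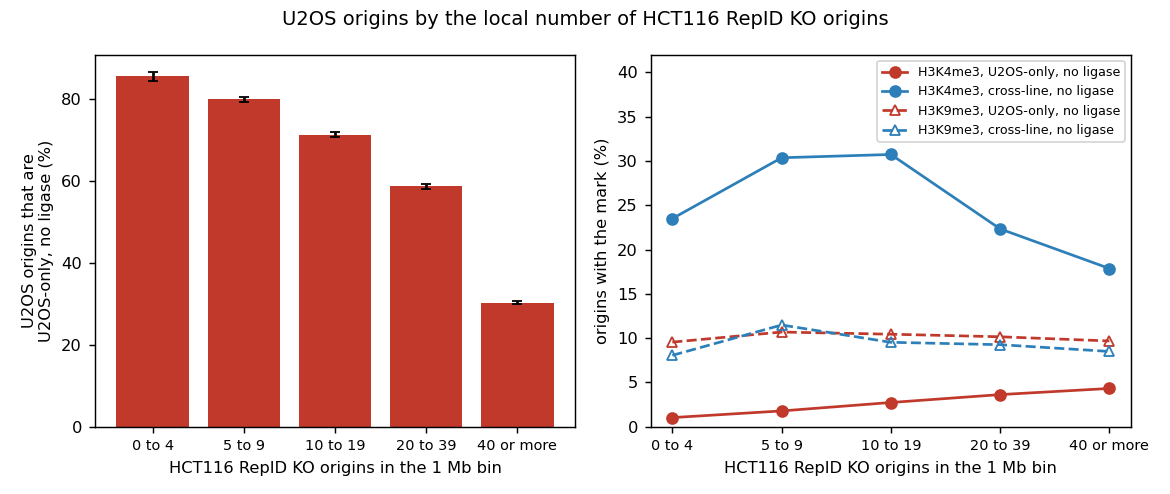
Left, the percentage of U2OS origins that were U2OS-only origins without CUL4A or CDT2 (with Wilson 95% intervals), and right, the percentage of origins meeting each histone mark, in bins of 1 Mb grouped by the number of HCT116 RepID KO origins they held. H3K4me3 at the U2OS-only origins without CUL4A or CDT2 (red circles) rose from 1.03% to 4.32% from left to right, and their H3K9me3 share (red triangles) stayed between 9.55% and 10.7%.

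Distance to the nearest HCT116 RepID KO origin gave the same picture at close range. H3K4me3 met 5.93% (5.55 to 6.34%) of the 13712 U2OS-only origins without CUL4A or CDT2 that lay under 5000 bp from such an origin. It met 2.61% of those between 5000 and 19999 bp and 1.53% (1.24 to 1.87%) of the 5898 at 100000 bp or more, with median widths of 2000, 2000 and 1800 bp. Of the 813 origins with H3K4me3 in the nearest group, 431 met an H3K4me3 region that also reached an HCT116 RepID KO origin, and of the 490 between 5000 and 19999 bp, 4 did. Distance to CUL4A had a smaller range, from 4.34% under 5000 bp to 2.12% at 100000 bp or more. For CDT2 the H3K4me3 shares were 3.30% and 2.70%, with overlapping intervals. H3K9me3 showed no such gradient, with 9.51% near and 9.31% far from an HCT116 RepID KO origin.

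The U2OS-only origins without CUL4A or CDT2 often followed each other along the chromosome. Both neighbouring U2OS origins were of the same kind for 45.5% of them, against 16.1% of cross-line origins without CUL4A or CDT2 whose neighbours were both of this kind, and 33.9% of U2OS-only origins with CUL4A or CDT2. They formed 20987 unbroken runs with a median length of 2 and a maximum of 46. Single origins between others were 9185 (15.3%), and 94 runs of 20 or more held 2372 origins (3.94%). Part of this follows from the rule, since these origins are more frequent where HCT116 RepID KO origins are few. As given above, they made up 85.4% of the origins in bins with 0 to 4 HCT116 RepID KO origins. In bins with 40 or more they made up 30.2%. Whether they followed each other more often than this uneven spread gives was not tested.

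Outside chromosome 8, the longest run held 41 origins on chromosome 14, at chr14:83479801-84964200 in the hg19 coordinates of the lists. Over its 1484400 bp the origins were between 400 and 6800 bp wide, with a median score of 59, and 0 of them met H3K4me3 while 4 met H3K9me3. Between the origins lay 4 HCT116 RepID KO origins, 5 CUL4A peaks and 3 CDT2 peaks. The runs of 38 at chr1:82479201-83318000 and chr14:48744801-49626400 were alike in this respect, with 0 origins meeting H3K4me3 and with 6 and 3 meeting H3K9me3. Their median scores were 72.5 and 71.5, against 76 for the whole set.

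Among the origins themselves, those with the highest scores in 4 groups by mark show the range of settings. Genes were not assigned and no sequence is given, since the lists are in hg19 and no genome or annotation of that build was used here. The 3 with H3K4me3 alone differed in the strength of the mark. At chr19:45539401-45546200, a score of 527 went with an H3K4me3 region of 7.60-fold enrichment that covered 3674 of 6800 bp, and an HCT116 RepID KO origin lay 1400 bp away. At chr1:16839201-16843200, a score of 433 went with a fold of 4.73 and nearly full coverage, with 3595 of 4000 bp. At chr14:74483601-74493000, a score of 412 went with a fold of 15.8, and the nearest HCT116 RepID KO origin was 57600 bp away.

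The 3 with H3K9me3 alone carried small H3K9me3 regions. The origin at chr7:45544001-45546400 had a score of 545 and 237 bp of H3K9me3 at 4.19-fold. Those at chr4:52681201-52688000 and chr7:58045001-58054400 had scores of 498 and 486, with 240 and 200 bp of H3K9me3. The last had a −log10 q of 1.84, below the stricter limit of 2 used as an alternative. None of the 3 had an H3K4me3 region within 10 kb.

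Of the 3 with SKP2, the origin at chr5:9801-11800 had the highest score of all the chosen origins, 1827, and met SKP2 in HCT116 WT cells. It lies at the start of the chromosome in the coordinates of the list, and an HCT116 RepID KO origin was 1000 bp away. The origin at chr2:34918801-34928600, 9800 bp wide with a score of 925, met 2 SKP2 regions of RepID KO cells and had its nearest CUL4A peak 97600 bp away. The origin at chr9:27258801-27263200, with a score of 553, also met SKP2 in RepID KO cells, and a CUL4A peak lay 3000 bp away.

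High scores were also found where none of the 4 lists was met. The origin at chr19:7054801-7061200 had a score of 696, with an H3K9me3 region 3021 bp away. The origin at chr4:30801601-30810200 had a score of 600. Its nearest U2OS origin and its nearest HCT116 RepID KO origin were each 75400 bp away, while a CUL4A peak lay at 13400 bp, an H3K9me3 region at 17347 bp and a CDT2 peak at 41486 bp. The origin at chr2:70846001-70855200 had a score of 596 and another U2OS origin 800 bp away, the smallest distance at which the list keeps neighbouring origins apart. High scores thus occurred both with and without another U2OS origin close by.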

How the data were processed

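Regions had been called from the reads by the authors, and hg19 is the build in the submitters' processing notes. Nascent strand origins and CUL4A peaks were called with SICER in windows of 200 bp, and the deposited lists give each region a score of the authors, as do those of CDT2 and SKP2. SICER is also the caller stated for H3K4me3 and H3K9me3, but both lists are laid out as MACS2 broad peaks, and the authors deposited a fold enrichment, which is a ratio, and a −log10 q in them. Library totals were not given in the sources used here, so depth is unknown, and scores were not compared between lists.

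Overlap means at least 1 shared base. Wilson 95% intervals were computed for shares. Differences were weighted over 4 width classes, with normal 95% intervals, and both cover counting error only. Overlap functions were tested on simulated data. Calculations used Python 3.11.15, NumPy 2.4.6 and pandas 2.3.3, and figures matplotlib 3.10.9. The origins and the comparisons were chosen with earlier results of these data known. Named regions are the 3 with the highest score in each of 4 groups by mark, and the 3 longest runs, leaving out chromosome 8. The alternatives were wider excluded regions, no width limit, the higher scores only, centres or windows of 1 kb in place of whole widths, histone regions with a −log10 q of at least 2, and differences without weighting. Parts of the plan that need an hg19 genome or annotation, among them base composition and genes, were not run.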

Additional observations from a re-analysis of the deposited data

How the results depend on the processing

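No paired analysis was possible because each condition has 1 sample, and no replicate could be left out. Of 43 values under alternatives, 18 stayed within the interval of the reported value or, for a count, within 1.5 times it, and 25 moved further. Counts and shares cannot be negative, so only the differences could change sign, and 0 of them did. Widening the excluded regions by 10 kb left 29778 of the origins, and widening them by 1 kb moved the H3K4me3 share to 2.82%. With the upper scores only, the shares were 4.09% (H3K4me3), 13.5% (H3K9me3), 2.60% (SKP2, WT) and 3.83% (SKP2, RepID KO), and the differences from cross-line origins without CUL4A or CDT2 were -17.6 and 3.02 points for H3K4me3 and H3K9me3. With the centre of the marked region inside the origin, the H3K4me3 share was 1.99% and its difference -11.1 points, and the H3K9me3 share was 9.67%. With 1 kb around the origin centre, the shares were 2.40%, 6.55%, 1.34% and 2.0%, and the differences -14.9 and 2.0 points. With a −log10 q of at least 2, the H3K4me3 share was 2.99%, the H3K9me3 share 6.43% and the H3K9me3 difference 1.34 points. Without weighting for width the differences were -17.0 and 1.32 points. Weightings by score or by bins of 1 Mb, chosen after seeing the data, took the place of the width classes. By score the H3K9me3 difference was 2.93 points. Within bins of 1 Mb the differences were -22.1 points for H3K4me3 and 0.448 points (-0.0963 to 0.992) for H3K9me3. Depth is unknown and limits every list, since an origin or region may be missing from a list for lack of reads.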

Other observations

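Chromosome X was left out by the rule. Of its 1226 U2OS origins under 10000 bp, 509 (41.5%, Wilson 95% interval 38.8 to 44.3%) met no HCT116 RepID KO origin, CUL4A peak or CDT2 peak. H3K4me3 met 30 of these (5.89%), H3K9me3 met 73 (14.3%), SKP2 of HCT116 WT cells met 9 (1.77%) and SKP2 of HCT116 RepID KO cells met 25 (4.91%).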
